A study of Mus musculus with 6 samples.

Results

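The 4 mouse Hox clusters were covered by 158 of the 359192 windows in which CpG methylation was measured, and they stood at a mean of 31.0% ± 3.55 (SD over 6 libraries), against 63.9% ± 3.93 over all windows. Every window that overlaps one of 4 genomic regions of GRCm38 was taken, whatever its methylation. The regions were HoxA on chromosome 6 from 52150000 to 52265000 (39 windows), HoxB on chromosome 11 from 96190000 to 96372000 (53 windows), HoxC on chromosome 15 from 102917000 to 103040000 (33 windows) and HoxD on chromosome 2 from 74664000 to 74768000 (33 windows). Within them, 38 Hox genes were followed by name.

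Enzymatic methyl sequencing (EM-seq) had been applied to E14TG2a mESCs, a feeder-independent line of embryonic stem cells of 129/Ola origin, at passages 5 to 28. The cells were grown on gelatin with foetal bovine serum and LIF, labelled with EdU, fixed, and sorted by EdU signal and DNA content into G1 and G2/M populations, so that both groups had undergone the same culture, labelling and fixation. There were 3 libraries of G1 cells and 3 of G2/M cells, each from 125 ng of DNA, and the comparison asks whether methylation differs after and before mitosis. All 6 libraries come from 1 cell line, and nothing in the labels says that the replicates came from separate cultures, although the paper calls them biological replicates. EM-seq reads 5-methylcytosine and 5-hydroxymethylcytosine together, and the percentages carry no read counts, so depth is unknown. A Hox window holds 49 to 66 CpG sites of the reference, or about 100 when both strands are counted.

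Hox genes encode homeodomain transcription factors that give cells their position along the head-to-tail axis of the embryo and along the limbs. The genes of a cluster lie in the order of their paralogue numbers, with low numbers (anterior genes) at one end and high numbers (posterior genes) at the other, and the anterior genes are the first to be used in development. In embryonic stem cells most of them are silent. Their CpG-rich stretches are then known as a textbook target of Polycomb repression, which is found chiefly at unmethylated CpG islands.

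Promoter sequences are shown first because they make visible how differently CpGs are spaced at Hox start sites. Of the 38 Hox genes, 22 had an entry in the RefSeq promoter table of GRCm38.p6, with 24 promoters in all, and in 8 of these the 250 bases before the start lay wholly inside the window that holds the start. The pair in the windows of lowest methylation and the pair in the windows of highest methylation among these 8 follow, written 5′ to 3′ along the gene with every CpG in capitals.
Hoxa2 (chr6:52164832-52165081, minus strand): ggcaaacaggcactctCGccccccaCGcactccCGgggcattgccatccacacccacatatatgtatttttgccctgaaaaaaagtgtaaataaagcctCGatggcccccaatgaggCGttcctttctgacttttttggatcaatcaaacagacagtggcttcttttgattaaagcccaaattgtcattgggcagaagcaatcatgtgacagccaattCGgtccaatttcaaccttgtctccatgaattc
Hoxd8 (chr2:74704365-74704614, plus strand): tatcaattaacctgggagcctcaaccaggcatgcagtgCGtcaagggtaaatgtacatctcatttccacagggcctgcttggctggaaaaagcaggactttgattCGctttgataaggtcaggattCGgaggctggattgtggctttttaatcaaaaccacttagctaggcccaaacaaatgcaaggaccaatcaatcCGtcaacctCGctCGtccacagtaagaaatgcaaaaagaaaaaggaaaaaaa
Hoxa10 (chr6:52234940-52235189, minus strand): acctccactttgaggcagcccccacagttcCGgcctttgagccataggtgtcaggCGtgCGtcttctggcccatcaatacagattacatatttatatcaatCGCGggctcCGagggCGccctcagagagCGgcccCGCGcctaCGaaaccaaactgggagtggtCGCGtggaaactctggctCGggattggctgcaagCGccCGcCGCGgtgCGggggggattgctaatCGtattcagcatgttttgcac
Hoxc4 (chr15:103034145-103034394, plus strand): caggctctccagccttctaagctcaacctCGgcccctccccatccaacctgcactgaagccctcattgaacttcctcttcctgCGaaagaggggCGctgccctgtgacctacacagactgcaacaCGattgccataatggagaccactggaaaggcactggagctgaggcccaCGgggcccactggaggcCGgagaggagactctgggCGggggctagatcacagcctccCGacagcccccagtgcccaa
The 250 bases held 6 CpGs at Hoxa2, in a window of 10.7% methylation, 6 at Hoxd8 (19.1%), 20 at Hoxa10 (27.6%) and 8 at Hoxc4 (33.8%). Number of CpGs in the promoter and methylation of the window thus did not run in one order in these 4 genes. Each window is several times longer than the stretch printed. Hox promoters of the table held a median of 12.5 CpGs (2 to 35), against 6 over all 32851 promoters of this length, of which 92.1% held at least 1.

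The miRNA genes of the clusters are given with their products, since copies of one family differed in methylation. The mature 5′ arms below are RefSeq entries, with the seed (bases 2 to 8) in capitals.
mmu-miR-10a-5p (Mir10a, chr11:96317186-96317208, plus strand): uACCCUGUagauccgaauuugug
mmu-miR-10b-5p (Mir10b, chr2:74726074-74726096, plus strand): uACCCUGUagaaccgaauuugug
mmu-miR-196a-5p (Mir196a-1, chr11:96265187-96265208, plus strand): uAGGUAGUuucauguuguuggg
mmu-miR-196b-5p (Mir196b, chr6:52230129-52230150, minus strand): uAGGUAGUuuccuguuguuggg
The first pair shares the seed ACCCUGU and the second pair AGGUAGU. Within the miR-10 family the window of Mir10a, which also holds the start of Hoxb4, stood at 27.1% ± 5.87 (SD, n = 6) and that of Mir10b at 47.3% ± 9.45. Within the miR-196 family the window of Mir196a-1 stood at 39.7% ± 4.96 and that of Mir196b at 4.56% ± 3.10. All 6 values of Mir196b, from 0 to 8.54%, lay below all 6 of Mir196a-1, from 32.8% to 46.4%. The window of Mir196b was 890 bp long and that of Mir196a-1 was 2136 bp long. The start of Mir196a-2, whose mature product has the sequence of Mir196a-1, fell in no listed window.

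Methylation of the Hox windows was lower than that of all windows in each library. The means over the Hox windows were 29.4%, 28.2% and 36.5% for replicates 1, 2 and 3 of G1 and 28.2%, 29.1% and 34.4% for those of G2/M. Over all windows the G1 means were 63.1%, 60.8% and 69.2%, and the G2/M means 61.9%, 60.1% and 68.5%. Replicate 3 was the highest of each phase in both sets. The difference was -32.9 percentage points, lay between -34.1 and -31.0 in the 6 libraries, and was negative in 6 of 6 (two-sided exact sign-flip test, p = 0.03125, the smallest that 6 libraries allow). This test, like the sign-flip tests below, takes the 6 libraries as independent. It runs over the same windows in each library and does not measure the spread between windows. Of the 158 Hox windows, 133 (84.2%) had a mean under 50%, compared with 12.4% of all windows, and 17 (10.8%) had a mean under 10%, compared with 2.13% of all windows. Thus, most Hox windows held intermediate levels, with 116 of them between 10% and 50%.

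Each cluster was also less methylated than the sequence beside it, taken as the windows centred within 100 kb of either edge. HoxA lay 29.4 percentage points below its flanks (43 windows), HoxB 23.0 below (46 windows), HoxC 29.6 below (33 windows) and HoxD 24.8 below (32 windows). The sign was the same in 6 of 6 libraries for all 4 clusters (exact sign-flip test, adjusted p = 0.03125 over the 4 clusters). Mean levels were 26.5% ± 3.16 in HoxA, 35% ± 4.54 in HoxB, 30.9% ± 2.34 in HoxC and 29.8% ± 4.43 in HoxD (SD, n = 6 libraries). Flanks ranged from 54.6% at HoxD to 60.4% at HoxC, still below the mean over all windows. The libraries of a cluster and those of its flanks did not overlap. Flank windows were longer, with a median of 3837 bp against 2151 bp in HoxA and 4178.5 bp against 2713 bp in HoxB. At HoxC the medians were 5632 bp and 3025 bp, and at HoxD 6295.5 bp and 2303 bp. The part of length in these differences was not tested.

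**Figure D1:**
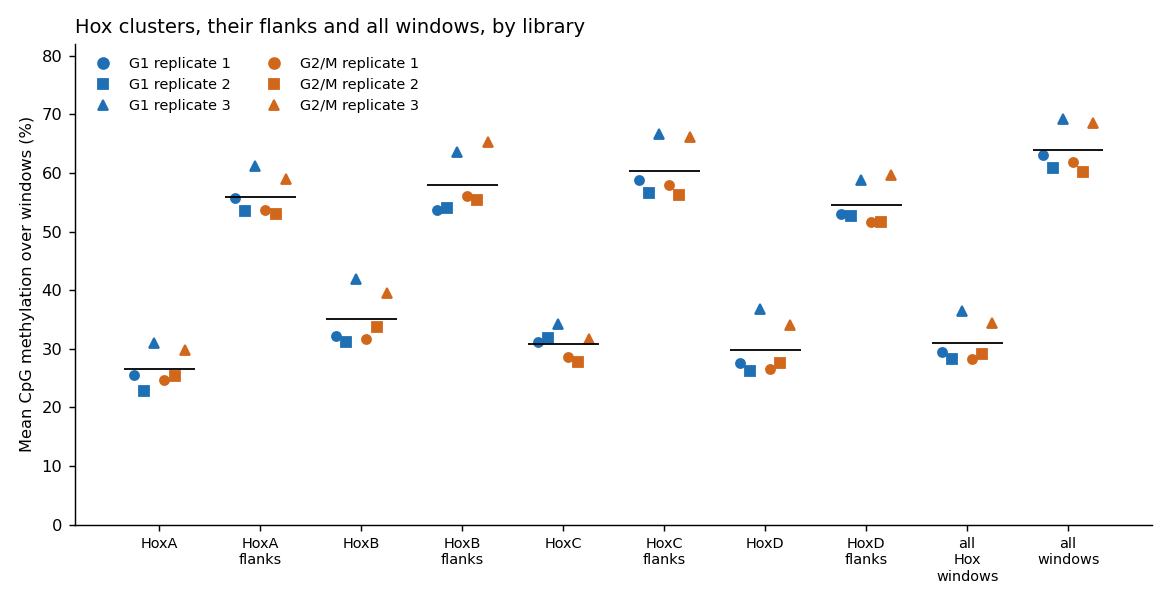
Mean CpG methylation over windows (y axis, %) of each Hox cluster, its flanks, all Hox windows and all windows, 1 point per library, with colour for phase, shape for replicate and a bar at the mean of 6 libraries. The clusters lie near 30% and their flanks between 51.6% and 66.6%, and replicate 3 is the highest of its phase in every set.

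The clusters differed among themselves by less. In every library HoxA was the least methylated of the 4. It lay below HoxB by 8.51 percentage points, below HoxC by 4.33 and below HoxD by 3.26 (exact sign-flip test over 6 libraries, adjusted p = 0.0469 over 6 pairs for each). HoxB exceeded HoxD by 5.24 percentage points, in 6 of 6 libraries (adjusted p = 0.0469). HoxB minus HoxC was 4.18 percentage points, with library values from -0.552 to 7.90, and did not pass (adjusted p = 0.075). HoxC minus HoxD was 1.06 percentage points, with values from -2.54 to 5.49 (adjusted p = 0.469). The order of HoxC against its neighbours is therefore not settled by these libraries.

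Within a cluster cut into 3 parts, the posterior part was less methylated than the anterior part in HoxA, HoxC and HoxD, and more methylated in HoxB. In HoxC this depended on the division. Regions were cut into 3 equal parts by length, named anterior (paralogue 1 side), middle and posterior (paralogue 13 side). In HoxB the posterior part held no Hox gene but Hoxb13 and was otherwise sequence between Hoxb13 and Hoxb9 or at the edge. The starts of Hoxb9, Hoxb8 and Hoxb7 lay in its middle part, so its posterior part is unlike those of the other clusters. Mean methylation was 32.8%, 26.4% and 22.2% along HoxA, 36.5%, 24.0% and 48.2% along HoxB, 34.8%, 29.1% and 29.2% along HoxC, and 37.3%, 36.7% and 18.6% along HoxD. The posterior part differed from the anterior part by -10.5 percentage points in HoxA, by 11.7 in HoxB, by -5.70 in HoxC and by -18.7 in HoxD. In each cluster the sign was the same in 6 of 6 libraries (exact sign-flip test, adjusted p = 0.03125 over the 4 clusters). The test asks whether the same windows repeat their difference between libraries, and does not measure the spread between windows of a part. With the regions cut into equal parts of 2 rather than 3, HoxC no longer passed (-0.811 percentage points, adjusted p = 0.156). Without windows listed at 0 in any library the difference was -5.77 percentage points in HoxA and -3.06 in HoxC, and with medians it was 19.5 in HoxB, all still past the threshold. Median window length in the anterior, middle and posterior parts was 2895 bp, 2069 bp and 2305 bp in HoxA, 2734 bp, 2136 bp and 3722 bp in HoxB, 3303 bp, 3454 bp and 2855 bp in HoxC, and 2062 bp, 2772 bp and 2296 bp in HoxD. The more methylated end thus had the longer windows in HoxA, HoxB and HoxC but not in HoxD, and the part of length in these differences was not tested.

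**Figure D2:**
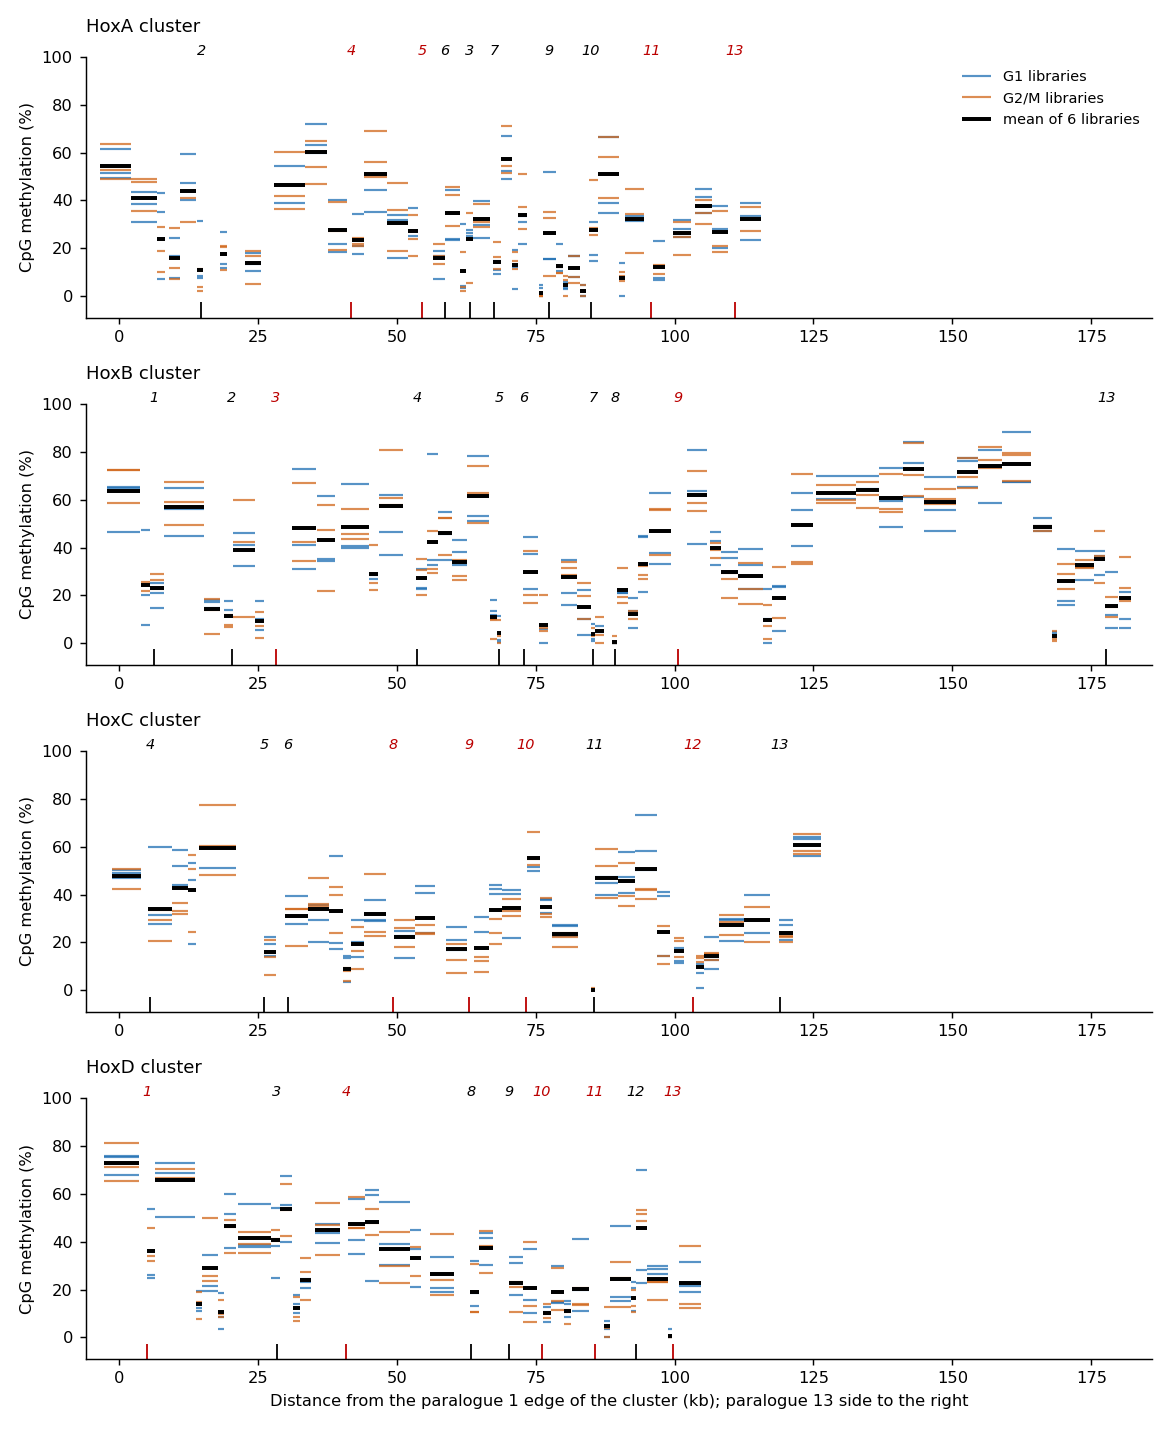
CpG methylation (y axis, %) of the windows of each cluster against distance from the paralogue 1 edge (x axis, kb), with 1 thin line per library and window, a thick line for the mean of 6 libraries, and ticks at the start sites (numbers are paralogues, red where no listed window holds the start). The stretch of HoxB between genes 9 and 13 reaches 74.9%, whereas windows at Hoxb8 and Hoxc11 lie near 0.

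A stretch with several highly methylated windows lay between Hoxb9 and Hoxb13, the gene that acts in the hindmost body and the prostate. This interval holds Mir196a-1 but no other Hox gene and spans 74009 bp (chromosome 11, 96197448 to 96271456). It held 18 windows, from 3.18% to 74.9% and 2 of them under 10%, with a mean of 47.6%, and library means of 46.9%, 44.0% and 53.8% in G1 and of 44.4%, 43.2% and 53.1% in G2/M. The other 35 windows of HoxB had a mean of 28.6%, between 24.6% and 35.7% in the libraries. Of the 25 Hox windows with a mean of at least 50%, 13 were in HoxB and 9 of these were in the interval. The highest single window of all 4 clusters was one of them, an intergenic window of 5085 bp (chr11:96207942-96213026) with G1 values of 67.4%, 67.6% and 88.3% and G2/M values of 78.7%, 67.8% and 79.6%. The interval was chosen after its values were seen, and is described without a test. Its windows had a median length of 3722 bp, against 2286 bp in the rest of HoxB.

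In the other clusters the most methylated windows were at or near an edge, except in HoxA. The window of HoxC with the highest mean, 60.7%, overlapped its posterior edge (chr15:102913594-102918678), and that of HoxD, 72.9%, overlapped its anterior edge and the end of Hoxd1 (chr2:74764348-74770687). In HoxA it lay within Hoxa3 transcripts (chr6:52183520-52187545), with G1 values of 72.1%, 59.7% and 63.3% and G2/M values of 53.8%, 46.7% and 65.1%. Hoxa3 is required for the thymus and parathyroid. Its annotated transcripts reach past Hoxa4, Hoxa5 and Hoxa6, so that the start used for Hoxa3 lies on the posterior side of Hoxa6.

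At the lower end stood short windows over the first exons and starts of single genes. In HoxC this was the window at the start of Hoxc11 (chr15:102954252-102955005, 754 bp), listed at 0 in 5 libraries and at 0.980% in G2/M replicate 2. In HoxB it was the window at the start used for Hoxb8 (chr11:96282420-96283311, 892 bp), listed at 0 in 5 libraries and at 2.78% in G2/M replicate 3. The RefSeq start of this gene lay 820 bp from the one used, outside this window. Hoxb8 is a posterior thoracic gene known from grooming behaviour and myeloid progenitors. In HoxD it was an exonic window of Hoxd13, the digit and genital gene (chr2:74668481-74669090, 610 bp), listed at 0 in 5 libraries and at 3.45% in G1 replicate 2. In HoxA it was an exonic window of Hoxa9 (chr6:52225552-52226266, 715 bp), a gene that acts in blood progenitors, with 4.44%, 0 and 3.45% in G1 and 0 in all 3 G2/M libraries. The longest run of listed windows with means under 10% was 3 windows over Hoxb8 and Hoxb7 (chr11:96282420-96287048, 4629 bp), with means of 0.463%, 5.23% and 3.97%. A stretch of 1364 bp with 68 CpGs inside this run was not listed. In HoxA, HoxC and HoxD no such run held more than 1 window.

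Low and high windows differed in CpG density, which in windows of a fixed number of CpGs is the inverse of length. Hox windows had a median length of 2548 bp, compared with 5817 bp over all windows, and median GC content was 48.7% and 43.0%. Across the 158 Hox windows, methylation and the logarithm of length correlated with r = 0.736 and rho = 0.724, a description across windows of the same libraries. The coefficient r was 0.772 in HoxA, 0.824 in HoxB, 0.590 in HoxC and 0.682 in HoxD.

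The gap to other windows was also present among windows of like length, except the shortest. Between 2 and 3 kb, all 45 Hox windows lay below the median of all windows of that length, with medians of 26.4% and 59.8%. Between 3 and 4 kb, 26 of 28 lay below, with medians of 33.2% and 68.8%, and between 4 and 6 kb 27 of 29, with medians of 46.5% and 70.9%. Above 6 kb, 5 of 6 lay below, with medians of 63.2% and 67.6%. Between 1 and 2 kb the medians were close, at 14.2% and 16.3%, with 21 of 39 Hox windows below. In the 11 Hox windows of up to 1 kb the order turned, with medians of 3.97% and 0.521%, and only 2 lay below. In windows of up to 2 kb no such gap was seen.

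**Figure D3:**
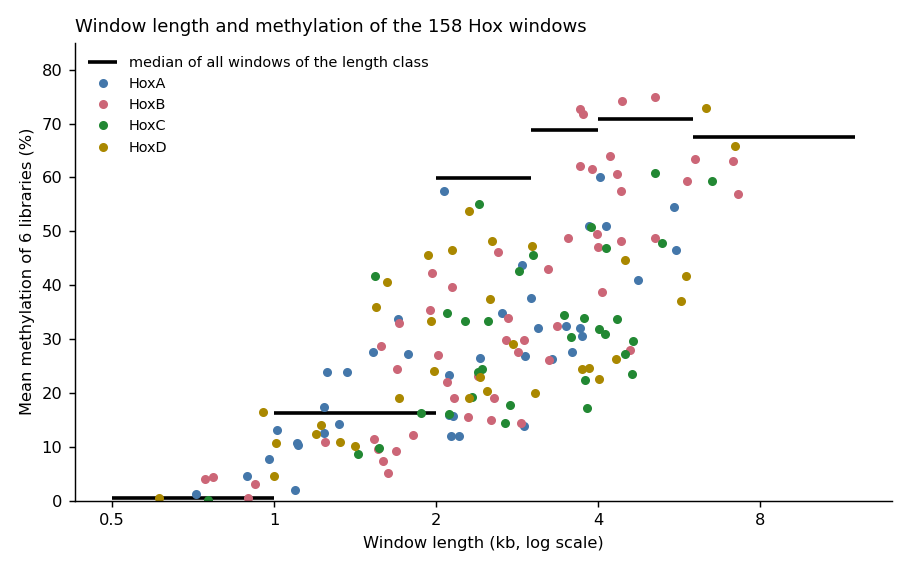
Mean methylation over 6 libraries (y axis, %) against window length (x axis, kb, log scale) of the 158 Hox windows, coloured by cluster, with black bars at the median of all windows of each length class. Between 2 and 3 kb every Hox window lies below the bar at 59.8%, whereas most windows of up to 1 kb lie above the bar at 0.521%.

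By annotation class, exonic windows of the clusters were the least methylated, with a median of 11.5% over 17 windows, followed by promoter windows with 23.8% (33 windows) and windows at transcript ends with 24.6% (27 windows). Intronic windows had a median of 33.3% (45 windows) and intergenic windows one of 46.6% (36 windows). Median lengths rose in nearly the same order, from 1242 bp in exonic windows to 3701 bp in intergenic ones. Classes follow the centre of a window and the transcripts of any gene. The windows at the starts of Hoxb8 (0.463%), Hoxc11 (0.163%) and Hoxa2 (10.7%) thus count as exonic, and that of Hotair (45.7%) as a promoter. The order of classes is therefore not one of Hox promoters against Hox exons. In HoxB, where the longest intergenic stretch lies, intergenic windows had a median of 58.1%, whereas in HoxC they had 29.7%, below that of its intronic windows (32.1%).

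For 23 of the 38 Hox genes a listed window held the start site of the protein-coding transcript, and these starts had a median methylation of 22.9%. Their range ran from 0.163% at Hoxc11 to 40.6% at Hoxd3. The only RefSeq start of Hoxd3 lay 27626 bp from the one used, in a window of 26.3%. Starts were covered for 6 of 10 genes in HoxA, 8 of 10 in HoxB, 5 of 9 in HoxC and 4 of 9 in HoxD. Over all protein-coding genes, 16202 of 21938 had a covered start, with a median of 48.8%. The share of covered starts under 10% was 17.4% for Hox genes (4 of 23) and 19.4% for all protein-coding genes, and the share under 20% was 47.8% (11 of 23) and 27.0%. None of the 23 covered Hox starts reached 50%, whereas 7913 of the 16202 did.

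The 15 starts without a listed window lie in CpG-rich stretches that the table leaves out. Listed windows held 62.2% of the CpGs of HoxA, 74.4% of HoxB, 66.3% of HoxC and 61.2% of HoxD, and unlisted stretches of at least 40 CpGs numbered 13, 9, 10 and 10. RefSeq promoters within 100 bp of the start used here held a median of 24 CpGs where the start was unlisted (7 promoters, 13 to 35) and of 10 where it was listed (11 promoters, 3 to 24). The unlisted starts are those of Hoxa4, Hoxa5, Hoxa11, Hoxa13, Hoxb3, Hoxb9, Hoxc8, Hoxc9, Hoxc10, Hoxc12, Hoxd1, Hoxd4, Hoxd10, Hoxd11 and Hoxd13, so that both limb genes of group 13 in HoxA and HoxD are among them. Their methylation was not measured in this table, and the levels given for the clusters leave these stretches out.

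Among anterior genes, the start of Hoxa2, which patterns the second branchial arch, had G1 values of 7.50%, 8.57% and 31.2% and G2/M values of 3.70%, 1.92% and 11.5%. The start of Hoxb2 had G1 values of 11.2%, 14.1% and 17.7% and G2/M values of 11.8%, 7.71% and 6.67%. Hoxb1, a hindbrain gene, had a mean of 23.1% ± 4.92 and Hoxa3 one of 23.8% ± 9.80. Hoxd3 was the highest, with G1 values of 38.4%, 25% and 53.9% and G2/M values of 40.3%, 41.0% and 44.9%. Its values and those of Hoxa2 overlapped in 1 library of each gene, G1 replicate 3 of Hoxa2 and G1 replicate 2 of Hoxd3.

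Genes of the middle groups covered nearly the whole range. The starts of group 6 were the most alike, with 34.8% ± 10.4 at Hoxa6, 29.9% ± 11.5 at Hoxb6 and 30.9% ± 7.13 at Hoxc6, and overlapped throughout. Those of group 4 had 27.1% ± 5.87 at Hoxb4, a gene used to expand blood stem cells, and 33.8% ± 13.6 at Hoxc4. In contrast, the starts of group 5 had 4.43% ± 4.95 at Hoxb5 and 16.2% ± 5.88 at Hoxc5, and those of group 7 had 14.2% ± 4.90 at Hoxa7 and 3.97% ± 2.80 at Hoxb7. All 6 values of Hoxa7, from 9.09% to 22.7%, lay above all 6 of Hoxb7, from 0.680% to 8.0%. In group 8, Hoxb8 stood at 0.463% and Hoxd8 at 19.1% ± 9.76, without overlap between their libraries. This order holds for the start of Hoxb8 used here and not for the 5′ end of the whole annotated gene (22.0%). The windows of Hoxb5, Hoxb7 and Hoxb8 were shorter than 1 kb.

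Posterior genes with a covered start ranged from Hoxc11 at 0.163% to Hoxa10 at 27.6% ± 12.1. Hoxa9 had 26.4% ± 16.4, the widest spread of all covered starts, from 8.33% to 51.9%, and Hoxd9 had 22.9% ± 8.51. Hoxd12 had 16.4% ± 5.53, Hoxb13 had 15.5% ± 8.12, and Hoxc13, a gene of hair and nail, had 23.8% ± 3.62. In HoxB 3 of 8 covered starts were under 10%, in HoxC 1 of 5, and in HoxA and HoxD none of 6 and 4.

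**Figure D4:**
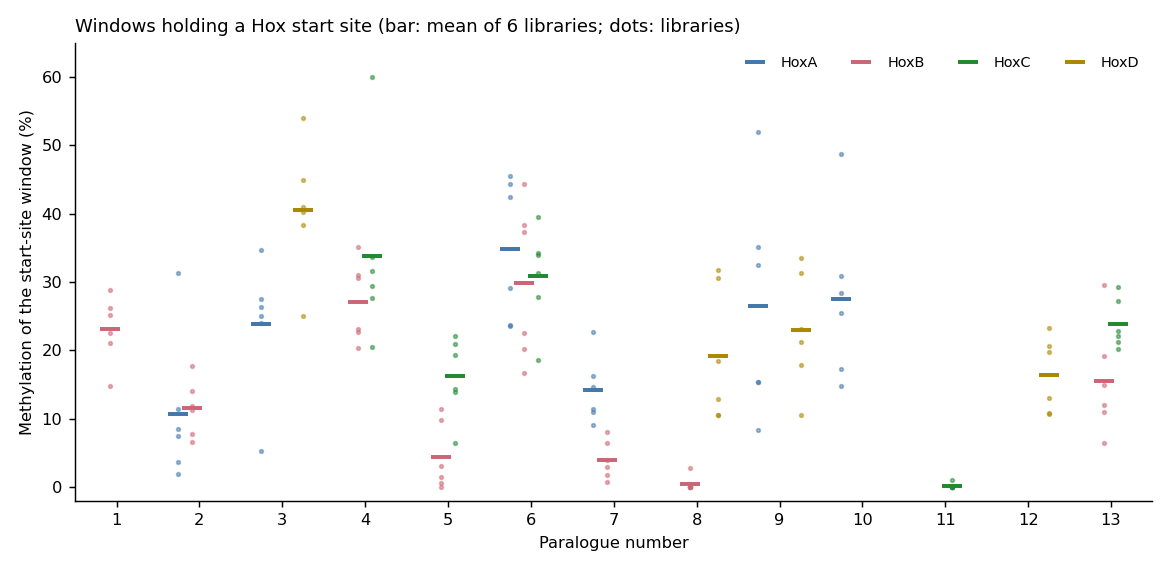
Methylation of the window that holds the start site (y axis, %) for the 23 Hox genes covered, by paralogue number (x axis) and cluster (colour), with a bar for the mean of 6 libraries and dots for single libraries. Starts of group 6 lie together near 30%, whereas those of groups 5, 7 and 8 are lower in HoxB than in the other clusters. For group 8 this depends on the start of Hoxb8 that was used.

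Several Hox genes have more than 1 start, and the value depends on the one used. At the 5′ end of the whole annotated gene, the level was 33.8% in place of 14.2% at Hoxa7, 38.8% in place of 11.5% at Hoxb2, and 22.0% in place of 0.463% at Hoxb8. It was 7.75% in place of 27.6% at Hoxa10, 19.2% in place of 30.9% at Hoxc6, and 26.3% in place of 40.6% at Hoxd3. With these values Hoxb8 lay above Hoxd8, which stayed at 19.1%. Hoxb8 was then no longer under 10%, whereas Hoxa10 was. In the RefSeq promoter table the only starts of Hoxb8 and Hoxd3 fell in the windows at the 5′ ends of these genes. That of Hoxa7 fell in the window used here. Hoxa10 had a start in each, and Hoxb2 and Hoxc6 had no entry.

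Other genes at or around the clusters, some of them well outside the regions, had starts with a median of 28.4%, covered for 18 of the 21 that the annotation holds (1 more was not found in it). Of these 18, 3 (16.7%) were under 20%, against 47.8% of the Hox starts, a difference that was not tested. The long non-coding RNA genes stood at 45.7% ± 8.64 for Hotair in HoxC, 32.1% ± 5.94 for Hottip at the posterior end of HoxA, and 23.8% ± 14.3 for Hotairm1 at its anterior end. Evx1 and Evx2, homeobox genes beside the posterior ends of HoxA and HoxD, had 20.9% ± 8.27 and 13.7% ± 5.73. Among 12 homeobox genes outside the clusters, 9 had a covered start, with a median of 25.6%, from 0.784% at Mnx1 to 46.7% at Pdx1. Among 9 genes of Hox cofactors (the Pbx, Meis and Pknox families), 6 had one, with a median of 26.3%.

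As a check of cell identity, 4 of 7 stem cell genes had a covered start. Tdgf1 had 0.278% and Nanog 13.9%, whereas Esrrb had 45.3% and Pou5f1 55.0%, the latter in a window of 188569 bp that says little about its promoter. Starts of Alb, Ins2 and Myh6, genes of other lineages, lay between 56.2% and 67.8%.

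Between G1 and G2/M no difference of the Hox clusters passed the test, and in HoxC alone the difference was larger than the SD between replicates. Over all Hox windows the means were 31.4% ± 4.47 in G1 and 30.6% ± 3.31 in G2/M (SD, n = 3), a difference of 0.800 percentage points (two-sided exact permutation test, p = 0.60, adjusted p = 1 over 5 values; 3 libraries against 3 cannot go below p = 0.10). G1 was higher in 2 of 3 matched pairs. The difference was -0.186 percentage points in HoxA (p = 1), 0.114 in HoxB (p = 1) and 0.837 in HoxD (p = 0.80), each by the same exact test and each positive in 2 of 3 pairs. Taken relative to all windows of the same library, the Hox windows differed by -0.0724 percentage points between the phases (exact permutation test, p = 0.90).

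In HoxC the mean over windows was higher in G1 in 3 of 3 pairs, by 2.58, 4.01 and 2.49 percentage points. Over all windows G1 was also higher in 3 of 3 pairs, by 1.28, 0.640 and 0.699. The same held in the HoxC flanks, by 0.839, 0.419 and 0.373. With libraries centred on their medians, the difference in HoxC was 1.96 percentage points (exact permutation test, p = 0.50). The library means of HoxC were, for G1, 31.2%, 31.8% and 34.2%, and, for G2/M, 28.6%, 27.8% and 31.7%. The groups overlapped, since G2/M replicate 3 lay above G1 replicate 1. The difference of 3.03 percentage points was larger than the SDs of 1.60 in G1 and 2.08 in G2/M, but did not pass (exact permutation test, p = 0.20, adjusted p = 1; p = 0.25 over matched pairs, the smallest that 3 pairs allow). Whether HoxC differed from the other clusters in this respect was not tested. With medians over windows in place of means, the difference was 4.84 percentage points in HoxC and 4.34 in HoxB, where G1 was then also higher in 3 of 3 pairs, by 0.0466, 5.38 and 7.58 percentage points (exact permutation test, p = 0.30 and 0.40). Replicate 3 exceeded the mean of the other replicates by less in HoxC, 2.72 percentage points in G1 and 3.52 in G2/M, than over all windows (7.21 and 7.47), in HoxB (10.1 and 6.92) or in HoxD (9.77 and 6.92). This smaller excess of replicate 3 goes with the smaller spread in HoxC, and its part in the result was not tested.

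No single Hox window passed the adjusted threshold of 0.05 in limma fitted over all windows, in which 0.00223% of all windows passed. Without adjustment, 7 Hox windows (4.43%) had p under 0.05 with higher methylation in G1, against 1.36% of all windows, and 2 (1.27%) with higher methylation in G2/M, against 0.75%. Of these, 4 of the 7 and 1 of the 2 were in HoxC. The G1 values all exceeded the G2/M values in 7 Hox windows (4.43%), against 4.12% of all windows, and below in 1 (0.633%), against 1.98%. G1 was above G2/M in all 3 pairs in 22 Hox windows (13.9%), against 16.3% of all windows, and below in 12 (7.59%), against 9.74%. By non-overlap and by pairs, the Hox windows were near or below the background, whereas by unadjusted p their share was above it. These differences in share were not tested.

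**Figure D5:**
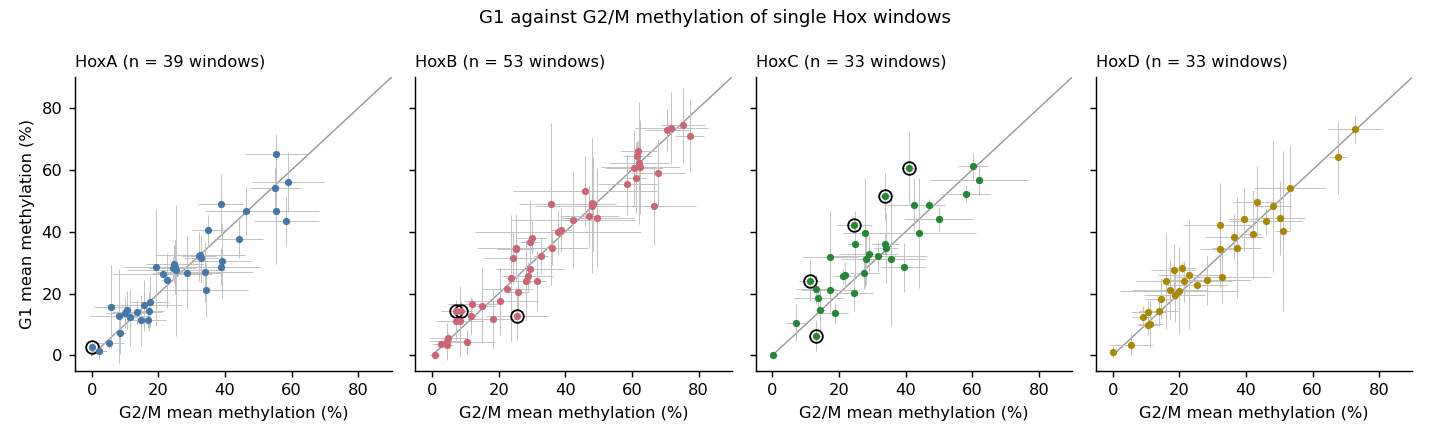
Mean methylation in G1 (y axis, %) against G2/M (x axis, %) of each Hox window, 1 panel per cluster, with SD bars over 3 libraries, the line of equality and rings around windows with an unadjusted p under 0.05. Rings mark 5 windows in HoxC, 4 of them above the line, and 4 windows in HoxA and HoxB.

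The smallest p in either direction belonged to a HoxC window at the end of Hoxc10 (chr15:102971081-102973336), with G1 values of 42.3%, 40.4% and 44.0% and G2/M values of 24.1%, 19.5% and 30.0%. The group means were 42.3% ± 1.80 and 24.5% ± 5.25 (SD, n = 3), and the groups did not overlap, but the window did not pass (limma, adjusted p = 1). The next listed window (chr15:102973402-102976140), noticed after its values were seen, had G1 values of 17.5%, 30.6% and 24.5% and G2/M values of 7.50%, 14% and 12.2%, also without overlap (limma, adjusted p = 1). The start of Mir196a-2 lies in the short gap between the windows. The window of smallest p overlaps the end of Hoxc10, and the next lies between Hoxc10 and Hoxc9, genes of the posterior trunk and spinal cord. The smallest p with higher methylation in G2/M belonged to a window at the posterior edge of HoxB (chr11:96189774-96191932), with G1 values of 6.41%, 21.3% and 10.1% and G2/M values of 17.8%, 35.9% and 22.9%. Its groups overlapped, whereas its matched differences were alike, at -11.4, -14.7 and -12.8 percentage points (limma, adjusted p = 1). When limma was blocked on replicate number, 4 Hox windows had a smaller unadjusted p than the one at the end of Hoxc10, among them this window, the next listed window just described and the start window of Hoxa2, but none passed after adjustment. Without G1 replicate 2, 1 Hox window had an adjusted p under 0.05, namely the exonic window of Hoxa9 described above, whose G1 values were then 4.44% and 3.45% and whose G2/M values were all listed at 0.

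The least reproducible window of the clusters lay in HoxB upstream of Hoxb4 and Mir10a (chr11:96314580-96316538). It had 32.7%, 34.9% and 79.2% in G1, an SD of 26.2, and 31.0%, 29.3% and 47.1% in G2/M. Replicate 3 was the highest in both phases. Among the 23 covered Hox starts, 1 had an unadjusted p under 0.05, Hoxb2, whose mean was 14.4% in G1 against 8.74% in G2/M, with overlap between the groups (limma, adjusted p = 1).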

How the data were processed

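EM-seq libraries of sorted G1 and G2/M mESCs (3 each) were analysed from the percentage of CpG methylation deposited by the authors for 359192 windows. According to the paper's methods and the processing notes, 75 bp paired-end reads were trimmed with Trim Galore 0.6.4, aligned to GRCm38/mm10 with Bowtie2 in Bismark 0.22.1, freed of duplicates, low-quality alignments and outlier regions, and quantified over 100-CpG windows with a minimum share of CpGs observed in all libraries. Some stretches have no listed window, for a reason not settled here. No normalization is stated. The percentages carry no counts, so depth is unknown, and no interval or coverage minimum was applied.

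Windows overlapping the 4 Hox regions were averaged per library, the unit of replication. For the phases, a two-sided exact permutation test ran over the 20 labelings, and for sets of windows within libraries a two-sided exact sign-flip test ran over 6 libraries, with Benjamini-Hochberg adjustment within each family. Tests of single windows used limma 3.58.1 (R 4.3.3) with eBayes moderation that follows the mean, on the log2 ratio of percentage + 1 to 100 - percentage + 1, adjusted over all windows, threshold 0.05. Same-numbered libraries were treated as matched, since the paper speaks of matched replicates. Their deviations from the group means correlated with 0.123 to 0.207 over the Hox windows, against -0.216 to 0.0490 for other numbers (all windows: 0.0274 to 0.0549, against -0.0299 to -0.00144). Start sites are those of the principal protein-coding transcript of shortest span in GENCODE vM21. A promoter window has its centre between 1000 bp before and 100 bp after the start of any annotated transcript, so a window that holds a start can be of another class. Statistics were tested on simulated data. The other steps used Python 3.11.15 (scipy 1.17.1, numpy 2.4.6, matplotlib 3.10.9, pandas 2.3.3).

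Named are the 38 Hox genes and listed neighbours, homeobox genes and cofactors by start window, the highest and lowest window and longest run under 10% of each cluster, and the windows of smallest p and largest SD. Members, lists and length classes were chosen with earlier results of these data known. Tried as alternatives were the percent scale, another offset, centring, a filter on mean methylation, no trend, the replicate block, medians, weighting by length, only windows wholly inside, no windows listed at 0, other flanks, other divisions, other start windows, and leaving out each library. The nearest listed window as start window was added after seeing the data. Replication domains, the authors' regions of differential methylation and the conversion controls were not analysed here. A further gene of the list of other lineages is not reported here.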

Additional observations from a re-analysis of the deposited data

How the results depend on the processing

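All results on the level of the clusters kept their direction under every alternative, with exceptions among cluster pairs. HoxA minus HoxD fell to -2.52 percentage points with medians and HoxA minus HoxC to -1.58 with weighting by length, both no longer past the threshold. HoxB minus HoxC passed it with medians (4.82), weighting by length (9.45), windows wholly inside (5.45) and without windows listed at 0 (6.31). HoxC minus HoxD reversed to -2.29 with weighting by length, without passing before or after. The posterior minus anterior difference of HoxC was -0.811 with 2 equal parts. Posterior minus anterior moved by over 1.5 times without windows listed at 0 (HoxA -5.77, HoxC -3.06) and with medians (HoxB 19.5). The phase difference of HoxB was 4.34 with medians, in place of 0.114. Phase differences near 0 changed sign without passing: all Hox windows to -0.273, HoxB to -0.958 and HoxD to -0.236 with centred libraries, HoxB to -0.383 with weighting by length, and the difference relative to all windows to 0.564 with medians and 0.0104 without windows listed at 0. With the replicate block as matched pairs, the phase difference of 3.03 percentage points in HoxC had p = 0.25 by the exact sign-flip test. No call of a phase difference of means changed. The comparisons of levels within libraries were not run over matched pairs. With 3 pairs the sign-flip test allows no p below 0.25, so none of them could pass. In limma, the 8 windows past the adjusted threshold over the genome became 1 when 5 percentage points were added in place of 1, and 0 with plain percentages, with centring, with the filter, without a trend and with the replicate block. No Hox window was among them. Hox windows with an unadjusted p under 0.05 numbered 9 at first and 9, 10, 13, 8, 6 and 13 in this order. Their share of the Hox windows tested was 5.70% at first, then 5.70%, 6.33%, 8.23%, 5.67%, 3.80% and 8.23%. Over all windows tested the share was 2.11% at first, then 2.16%, 2.21%, 4.90%, 2.30%, 2.16% and 4.83%.

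Leaving out 1 library at a time, a sign-flip test over 5 libraries cannot pass the threshold, so only values are given. Hox minus all windows ranged from -33.3 to -32.7, and cluster minus flanks from -29.8 to -29.2 in HoxA, -23.3 to -22.4 in HoxB, -30.5 to -28.6 in HoxC and -25.3 to -24.4 in HoxD. Posterior minus anterior ranged from -11.4 to -9.78 in HoxA, 11.3 to 12.3 in HoxB, -6.03 to -5.37 in HoxC and -19.5 to -17.8 in HoxD. The pairs ranged from -8.87 to -8.03 (HoxA minus HoxB), -4.82 to -3.40 (HoxA minus HoxC), -3.55 to -2.76 (HoxA minus HoxD), 3.44 to 5.13 (HoxB minus HoxC), 5.06 to 5.38 (HoxB minus HoxD) and 0.177 to 1.78 (HoxC minus HoxD). G1 minus G2/M ranged from -1.76 to 2.70 over all Hox windows, -2.45 to 1.62 in HoxA, -3.27 to 2.42 in HoxB, 2.12 to 4.20 in HoxC, -2.42 to 3.14 in HoxD and -0.667 to 0.873 relative to all windows, so only HoxC kept its sign. Windows past the adjusted threshold over the genome numbered 26 to 46, and Hox windows 0 to 1 (1 without G1 replicate 2). Hox windows with an unadjusted p under 0.05 numbered 9 to 14. These were 5.70% to 8.86% of Hox windows, against 1.49% to 3.76% of all windows. The median over covered start sites ranged from 20.8% to 22.9%. The causes of these changes were not tested. Depth is unknown, so the reliability of single windows rests on the spread between libraries alone.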
